A study of Mus musculus with 14 samples.

Results

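Gene expression in mouse embryonic fibroblasts that received Cdk9-DN during reprogramming was compared between day 10 and day 5 after infection. The comparison used 4 of the 14 libraries of the series, 2 from each day. Every gene listed in at least 1 library of each day was taken, which gave 23828 of the 26962 genes listed anywhere. The cells were of strain OG2/129SV, were grown with LIF in medium for embryonic stem cells, and all carried Oct4, Sox2, Klf4 and c-Myc (OSKM). Cells of the matching arm received a control vector in place of Cdk9-DN, also with 2 libraries at day 5 and 2 at day 10. Days 3 and 4 were sampled with both vectors as well, with 1 library per vector at day 3 and 2 per vector at day 4. Both arms were whole transduced cultures, and the labels do not say what share of the cells took up each factor or whether the 2 libraries of a group came from separate cultures. The p-values below therefore measure only the spread between these libraries, which may be technical.

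Cdk9 is the kinase of P-TEFb, the complex that releases RNA polymerase II from its pause shortly downstream of the start site. The labels say that Cdk9-DN was overexpressed and do not spell out DN. Fibroblasts on the way to pluripotency are known to shed mesenchymal genes and to take up epithelial ones, a mesenchymal-to-epithelial transition, before the embryonic stem cell network is switched on. The comparison asks which of these steps took place between days 5 and 10 in cells with Cdk9-DN. The level of Cdk9 itself was not analysed here, so the labels were not checked against it.

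Values are FPKM, fragments scaled to exon length and library size, and a change is the difference between the group means of log2(FPKM + 1), day 10 minus day 5. This scale understates the change of genes with low values. A gene was called when its limma p, adjusted by Benjamini and Hochberg over all genes tested, was under 0.05, two-sided. The depth implied by the deposited bounds was 10.2 and 12.4 M fragments at day 5 and 12.7 and 12.95 M at day 10. A few short RNA entries took much of the summed FPKM: 4 of them held 59.7% and 62.3% of it at day 5 and 51.7% and 46.7% at day 10. Of the 23828 genes, 12482 were at 0 in every one of the 4 libraries that listed them, 17658 stayed under the filter of 1 FPKM in 2 or more libraries (of 12, from days 4 to 10), and 387 had too few values for the fit. The remaining 5783 were tested, 4391 of them listed in all 4 libraries.

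Calls were made for 2019 of the 5783 genes (34.9%), of which 1304 were higher at day 10 (22.5%) and 715 lower (12.4%). An unadjusted p under 0.05 was reached by 43.8%. The share of higher genes among the called was 64.6%. It was 50.4% after median-of-ratios scaling, 54.3% after quantile normalization and 49.8% when protein-coding genes were rescaled to their own sum. The last of these was fitted on protein-coding genes alone, of which 682 were called higher and 503 lower in the main fit. The median change was 0.07 over all tested genes and 0.05 over the protein-coding ones, against -0.06 after the rescaling. The direction of changes smaller than such a shift therefore depends on the scaling. Large changes leaned to the higher side: 370 called genes were higher by 1 or more and 153 lower by 1 or more, and at 3 or more the counts were 50 and 7. Among the 4391 genes listed in all 4 libraries, both day 10 values lay above both day 5 values for 1735 (39.5%) and below them for 1178 (26.8%).

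The named genes with the largest increases encode secreted peptides, proteins of cell junctions and proteins of cornifying epithelium. Trh, the precursor of thyrotropin-releasing hormone (chr6:92192055-92194644, mm9), went from 1.38 and 2.27 FPKM to 244 and 240 FPKM. Its change was 6.45 ± 0.19 (SE, n = 2 and 2; adjusted p = 9.29e-07 by limma). Npy, neuropeptide Y (chr6:49772709-49779506), went from 0 and 0.584 FPKM to 53.2 and 51.1 FPKM, a change of 5.40 (adjusted p = 4.43e-06). Pcsk1n, whose product proSAAS is a peptide inhibitor of the prohormone convertase PC1, was already at 4.09 and 6.52 FPKM at day 5 and reached 101 and 94.9 FPKM. All 3 genes are known from neurons and endocrine cells, and the 2 libraries of a day lay close together. That the days did not overlap was required by the rule that chose these genes.

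Genes of stratified and barrier epithelium were also among the largest increases. Sprr1a, a small proline-rich protein of the cornified envelope (chr3:92287874-92289817), rose from 0.855 and 0.702 FPKM to 59.1 and 52.7 FPKM. Tgm3, the transglutaminase that cross-links that envelope (chr2:129838085-129876135), rose from 0.815 and 0.572 FPKM to 18.0 and 18.3 FPKM. Asprv1, a protease of the epidermis, rose from 0 and 0.106 FPKM to 11.3 and 10.7 FPKM. Each of these genes was at or under 1 FPKM in both day 5 libraries. Ly6d, a surface protein of the Ly6 family, rose from 0.352 and 0.868 FPKM to 46.3 and 43.0 FPKM, and S100a14, a calcium-binding protein of epithelia, from 0 and 0.0814 FPKM to 40.3 and 43.7 FPKM. The acute-phase genes Saa1 and Saa3 rose as well, Saa1 from 0 and 0.176 FPKM to 35.3 and 35.5 FPKM and Saa3 from 0.787 and 1.72 FPKM to 25.2 and 27.7 FPKM. Saa1 and Saa3 belong to a family of close copies, and how shared fragments were divided between such copies is not given in the sources used here. Other large increases were those of Cldn4, Pdzk1ip1, Capsl and Smagp, with changes from 3.46 (Smagp) to 4.80 (Cldn4).

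**Figure D1:**
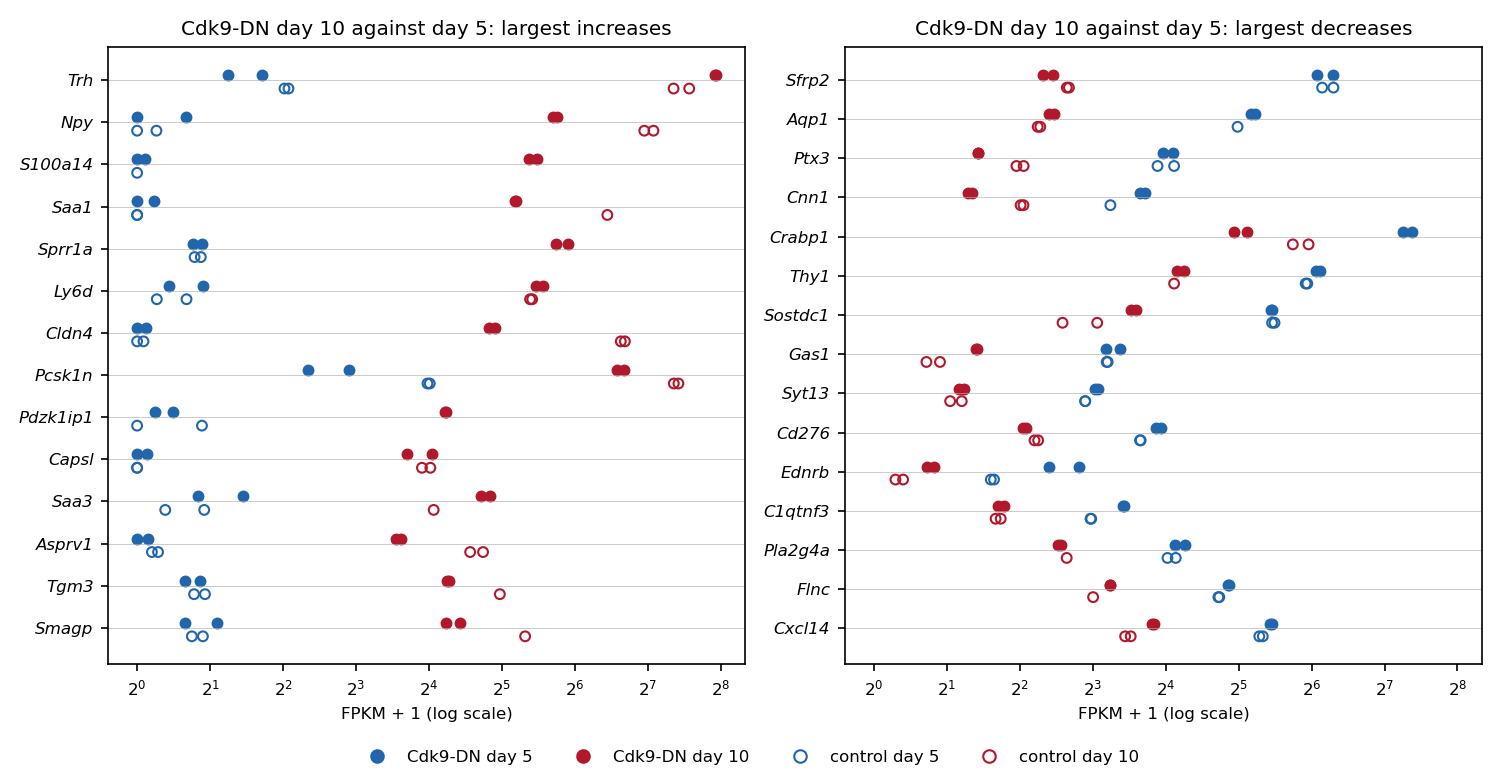
FPKM + 1 on a log axis in each library that lists the gene, for 14 genes with the largest increases (left) and the 15 with the largest decreases (right) in Cdk9-DN cells; filled points are Cdk9-DN libraries, open points control vector libraries, blue day 5 and red day 10, with up to 2 points per group. In each gene shown the filled red and filled blue points are apart, which the rule that chose the genes required. For Cldn4 (29.0 and 27.3 FPKM with Cdk9-DN, 102 and 98.0 FPKM with control at day 10) the open red points lie further right.

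The largest decreases included secreted, surface, actin-binding and intracellular proteins. Sfrp2, a secreted modulator of Wnt signalling (chr3:83570243-83578238), went from 66.2 and 77.3 FPKM to 4.50 and 4.00 FPKM and fell by 3.79 ± 0.12 (SE; adjusted p = 1.24e-06). Aqp1, a water channel (chr6:55286426-55298549), fell from 36.3 and 35.1 FPKM to 4.54 and 4.30 FPKM. Ptx3, a secreted pentraxin of innate immunity, fell from 16.2 and 14.7 FPKM to 1.70 FPKM in both libraries. By the ratio of group means, Sfrp2 was 16.9-fold and Aqp1 8.08-fold lower at day 10. The days did not overlap in any of the 3 genes, which the rule that chose them required. Cnn1, the actin-binding calponin of smooth muscle and myofibroblasts, fell from 12.2 and 11.6 FPKM to 1.54 and 1.45 FPKM, and Flnc, a filamin that cross-links actin, from 27.9 and 28.2 FPKM to 8.41 and 8.43 FPKM. Crabp1, a retinoic acid-binding protein, was the highest of the group at day 5, with 151 and 165 FPKM, and was at 29.7 and 33.6 FPKM at day 10. Thy1, a surface glycoprotein used as a fibroblast marker (chr9:43851467-43856662), fell from 65.8 and 68.6 FPKM to 18.0 and 16.8 FPKM. The remaining 8 of the 15 largest decreases, Sostdc1, Gas1, Syt13, Cd276, Ednrb, C1qtnf3, Pla2g4a and Cxcl14, had changes between -1.89 and -1.62. In these bulk libraries, fewer cells of a type and less RNA per cell cannot be told apart.

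Promoter sequence was looked up for the 30 genes with the largest changes, to show the start regions of genes at both ends of the range. Windows were found for 24 of them in the RefSeq table (GRCm38.p6), 12 of genes that rose and 12 of genes that fell. The motif TATAAA, the core of the TATA box, was present on the coding strand within the 120 bases before the start in 2 of the genes that rose and in 1 that fell, against 4.54% of all 27025 promoters. The 3 sequences are shown 5′ to 3′ on the coding strand, ending at the last base before the start, with TATAAA in capitals. They lie at chr3:92485882-92486001 on the minus strand for Sprr1a, at chr2:130012220-130012339 on the plus strand for Tgm3 and at chr15:10952212-10952331 on the plus strand for C1qtnf3.
Sprr1a: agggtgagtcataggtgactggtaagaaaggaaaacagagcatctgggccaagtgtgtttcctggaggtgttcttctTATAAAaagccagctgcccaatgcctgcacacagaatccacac
Tgm3: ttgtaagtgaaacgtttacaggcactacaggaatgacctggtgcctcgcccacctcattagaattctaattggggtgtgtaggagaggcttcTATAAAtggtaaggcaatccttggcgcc
C1qtnf3: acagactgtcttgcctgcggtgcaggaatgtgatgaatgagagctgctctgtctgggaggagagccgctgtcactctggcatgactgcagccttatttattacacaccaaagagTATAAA
The first base of TATAAA lies at -43 in Sprr1a, -28 in Tgm3 and -6 in C1qtnf3, counted back from the start. Sprr1a also holds TGANTCA, the core bound by AP-1 factors, at -116 and CCAAT at -26 on the coding strand, and Tgm3 holds CCAAT at -52 on the other strand. Over the whole promoter windows of the table and on both strands, TATAAA was in 14.2%, CCAAT in 37.9%, GGGCGG in 35.9%, TGANTCA in 7.93% and TTTNGCGC in 1.38%. Shares over all called genes are not given, since windows matched only 67.0% of the protein-coding genes called higher and 68.2% of those called lower, under the limit set for such a check. A match is a description of the letters in the window and not evidence of binding.

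Simple epithelial genes, those of keratins, claudins and their regulators, were higher as a group. Of the 40 genes of the list, 17 were listed in both groups and 14 were tested: 11 were called higher, 0 lower, and the median change was 1.90, against 22.5% called higher and a median of 0.07 over all genes tested. Under each of the 3 other scalings 10 or 11 were called higher and 1 lower. Krt8, a keratin of simple epithelium (chr15:101827142-101834773), rose from 11 and 11.3 FPKM to 97.9 and 98.2 FPKM. Its partner in the filament, Krt18 (chr15:101858647-101862457), rose from 0.574 and 0.883 FPKM to 7.10 and 6.31 FPKM. Cldn4, a claudin of tight junctions (chr5:135420996-135422804), was at 0 and 0.0878 FPKM at day 5 and at 29.0 and 27.3 FPKM at day 10. Cldn3, another claudin, rose from 7.69 and 4.59 FPKM to 29.1 and 24.9 FPKM. Epcam, the epithelial cell adhesion molecule, was at 0.934 and 1.07 FPKM at day 5 and at 55.9 FPKM in the 1 day 10 library that lists it. The 3 members that did not pass were Klf5, Cdh3 and Prss8, the last listed at 0 in each of the 3 Cdk9-DN libraries that list it.

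Keratinocyte and trophoblast markers gave 6 higher and 1 lower of 10 tested (28 in the list), with a median of 1.35. Besides Sprr1a they included Sfn, the epithelial 14-3-3 protein, which rose from 3.32 and 3.62 FPKM to 37.6 and 36.2 FPKM, and Krt5, a basal keratin, which rose from 0.378 and 0.408 FPKM to 11.9 FPKM in the 1 day 10 library that lists it. Perp, a desmosomal protein and p53 target, rose from 45.8 and 42.7 FPKM to 172 and 176 FPKM. Simple and stratified epithelial genes were therefore higher in the same day 10 libraries.

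Pluripotency genes gave 10 higher and 1 lower of 14 tested (38 in the list), with a median of 1.25. The count of higher genes was 8 after median-of-ratios scaling and 9 under both others. Nanog, a central factor of the network, rose from 1.16 and 1.09 FPKM to 6.24 FPKM in the 1 day 10 library that lists it. Nr0b1, an orphan nuclear receptor of embryonic stem cells (chrX:83437103-83441286), rose from 0.374 and 0.351 FPKM to 10.4 and 11.4 FPKM, a change of 3.12 (adjusted p = 8.41e-07). Tdgf1, a co-receptor for Nodal, had 8.69 and 7.35 FPKM at day 10, against a listing at 0 in each library of day 5. The factor gene Sox15 likewise had 6.63 and 11 FPKM at day 10, against 0 in each library of day 5. Utf1 and Dppa5a, 2 genes of undifferentiated embryonic stem cells chosen here after their values were seen, rose from 0.0897 and 0 FPKM to 5.14 and 5.92 FPKM and from 0.103 and 0 FPKM to 4.78 and 5.06 FPKM. Levels of these genes at day 10 stayed near or under 11 FPKM, well under those of Krt8. Of the delivered factors, Sox2 and Myc were not tested, since neither day 10 Cdk9-DN library lists them; at day 5, Sox2 was at 501 FPKM and Myc at 778 FPKM in 1 library each.

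**Figure D2:**
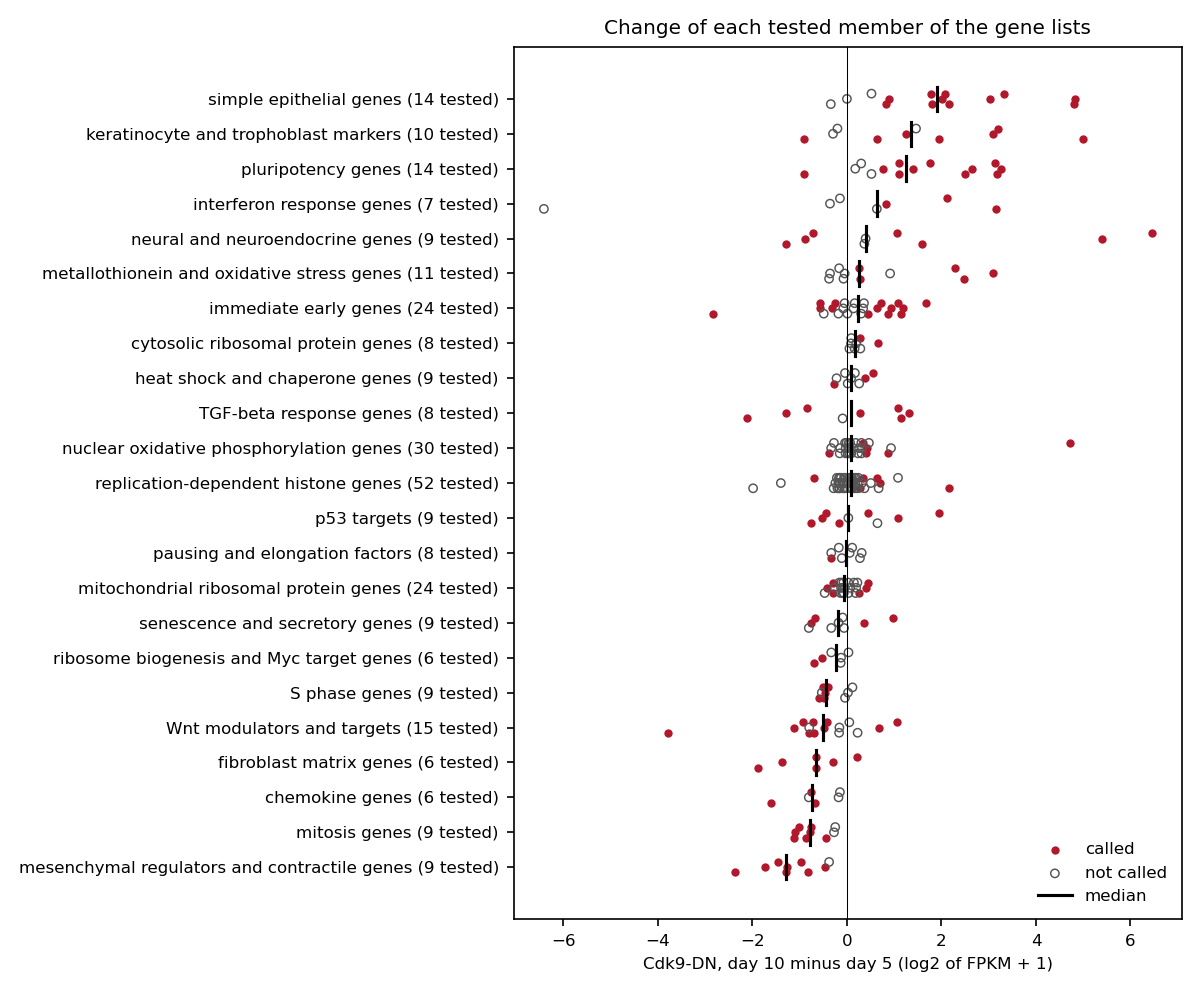
Change from day 5 to day 10 in Cdk9-DN cells (log2 of FPKM + 1) of each tested member of the gene lists with at least 6 tested members; filled red points passed the test, open points did not, and the bar is the median of the list. The epithelial, keratinocyte and pluripotency lists have medians of 1.90, 1.35 and 1.25 and the mesenchymal list of -1.28, against 0.07 over all genes.

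Mesenchymal regulators and contractile genes moved the other way, with 8 lower and 0 higher of 9 tested and a median of -1.28, against 12.4% called lower over all genes. The list held 28 genes, most of them not tested. Snai2, a repressor of epithelial genes, fell from 4.93 FPKM in the 1 day 5 library that lists it to 0.842 and 0.751 FPKM. Twist2, another factor of the mesenchymal program, fell from 17.6 and 18.2 FPKM to 6.25 and 5.50 FPKM. Cdh2, N-cadherin, fell from 23.8 and 24.4 FPKM to 9.35 FPKM in the 1 day 10 library that lists it. Leaving out 1 Cdk9-DN library at a time gave 6 to 8 lower calls. Of the 33 fibroblast matrix genes in the list, 6 were tested and 5 of these were lower, with a median of -0.66. They included Pdgfra, a growth factor receptor, which fell from 2.91 and 2.41 FPKM to 0.383 and 0.429 FPKM, and Dcn, the matrix proteoglycan decorin (chr10:96942245-96980777), which fell from 21.9 and 21 FPKM to 12.5 and 14 FPKM. Each fit without 1 of the 4 libraries gave 3 lower calls. The higher call was that of Timp3, a metalloproteinase inhibitor, with a change of 0.20 that no longer passed under any of the 3 other scalings, nor without either of the day 10 libraries.

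Wnt modulators and targets gave 8 lower and 2 higher of 15 tested, with a median of -0.50. Beside Sfrp2, the receptors Fzd1 and Fzd7 fell, Fzd1 from 7.26 and 8.75 FPKM to 3.22 and 3.05 FPKM and Fzd7 from 20.4 and 20.6 FPKM to 10.5 and 10.1 FPKM. The members that rose were Nkd1, a feedback inhibitor of the pathway, and Gpc3, a glypican, with changes of 1.06 and 0.67. The list thus held genes of opposite roles, and its receptors and secreted modulators made up most of the decreases. Hoxd13 and Hoxa11, patterning genes of the limb, fell by 1.08 and 0.96, the 2 calls among 5 Hox genes tested. Among 6 chemokine genes, 3 fell, led by Cxcl14, which was at 42.0 and 42.9 FPKM at day 5 and at 13.3 and 13.0 FPKM at day 10.

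Of 9 S phase genes tested, 5 were called lower and 0 higher, with a median of -0.45, and of 9 mitosis genes, 7 were called lower and 0 higher, with a median of -0.79. The lists held 44 and 35 genes, so most members of both were not tested. Over all genes 12.4% were called lower. The S phase genes that did not pass included Gins4 and Rfc2, with changes of 0.12 and 0.02. Mcm4, a subunit of the replicative helicase, fell from 45.2 and 41.8 FPKM to 29.0 and 28.2 FPKM, and Mcm3, another subunit, from 56.6 and 56.2 FPKM to 39.6 FPKM in 1 library. Plk1, a mitotic kinase, fell from 44.3 and 49.9 FPKM to 22.3 and 19.9 FPKM. Birc5, a member of the chromosomal passenger complex, fell from 88.0 FPKM in 1 library to 43.6 and 42.9 FPKM. The changes of the mitosis genes called lower ran from -1.12 (Plk1) to -0.45 (Kif22), and those of Mcm2, Mcm3 and Mcm4 from -0.59 to -0.39. Both lists kept their direction under the 3 other scalings, with 5 or 6 lower S phase genes and 7 lower mitosis genes, and leaving out 1 library gave 3 to 4 and 5 to 7. The 3 S phase calls were reached without either day 5 library and without the second of day 10.

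Immediate early genes, which answer growth factors and stress within minutes, were mixed, with 9 higher and 5 lower of 24 tested and a median of 0.23, against 22.5% higher and 12.4% lower over all genes. Arc, an activity-induced gene, rose from 0.424 and 0.621 FPKM to 3.82 FPKM in 1 library, and Dusp6, a phosphatase that shuts off ERK, rose from 10.5 and 11.5 FPKM to 25.4 FPKM in 1 library. Fosl1, an AP-1 subunit, was at 5.51 and 6.90 FPKM at day 5 and was listed at 0 in the 1 day 10 library that lists it. Egr1, a zinc finger factor of the same response, was at 20.6 FPKM in 1 day 5 library and at 17.7 and 18.5 FPKM at day 10, with adjusted p = 0.1. Dusp6, Fosl1 and some other called members were listed at day 10 in the second library alone. Without that library they could not be fitted and were counted as not called. Leaving out 1 library gave 5 to 8 higher and 2 to 5 lower, the lowest of both without the second day 10 library, and 3 lower without the second day 5 library. Genes that respond to TGF-beta split in the same way, 4 higher and 3 lower of 8 tested, with 2 higher without the second day 5 library. Their median of 0.09 was -0.05 after median-of-ratios scaling. Ctgf, a matricellular protein (chr10:24315248-24318489), rose from 90.4 and 93.7 FPKM to 196 and 193 FPKM, and Id1, an inhibitor of differentiation, from 79.7 FPKM in 1 library to 185 and 172 FPKM. Cyr61, a close relative of Ctgf, fell from 126 FPKM in 1 library to 70.9 and 67.6 FPKM, and Tgfbi, a matrix protein induced by TGF-beta, from 15.9 and 16.9 FPKM to 3.04 FPKM in 1 library.

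Other groups moved in single members. Gsta4, a glutathione transferase, rose from 84.1 and 82.5 FPKM to 459 and 471 FPKM. Gpx2, an epithelial glutathione peroxidase, rose from 0 and 0.0816 FPKM to 8.02 and 7.61 FPKM, a change of 3.08, and its processed pseudogene Gpx2-ps1 by 3.0, so that fragments of the pair may not be separable. With 5 of 11 metallothionein and oxidative stress genes called higher and 0 lower, this list had a median of 0.26, which fell to 0.13 or less under the other scalings, where 3 or 4 were called higher and up to 2 lower, and 3 were called higher without the second day 5 or the first day 10 library. Of 7 interferon response genes, 3 were called higher: Bst2, which tethers budding virus, rose from 25.7 and 33.3 FPKM to 130 and 129 FPKM, and Oas1a, a sensor of double-stranded RNA, from 0.179 and 0.22 FPKM to 9.67 FPKM in 1 library. The third, Rtp4, had a change of 0.83 that was lost without the second day 5 or the first day 10 library, and without the latter the list had 1 higher call. Ifitm1 of the same list was at 84.2 FPKM in 1 day 5 library and listed at 0 in both day 10 libraries and was not called; an exact 0 can be a failed estimate in such tables.

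Of the 50 genes listed for transcription pausing and elongation, the process in which Cdk9 acts, 8 were tested. Of these, 1 was called lower and 0 higher, with a median of -0.02, against 12.4% lower and 22.5% higher over all genes. Leo1, a subunit of the PAF1 complex, was at 26.1 and 24.3 FPKM at day 5 and at 18.5 and 20.8 FPKM at day 10. Its change of -0.34 (adjusted p = 0.0165) was lost without the first day 5 or the first day 10 library. Hexim1, the protein that holds P-TEFb inactive on 7SK RNA, was at 8.99 and 9.47 FPKM at day 5 and at 11.1 and 11.6 FPKM at day 10 and was not called (change 0.28, adjusted p = 0.0539). After median-of-ratios scaling 3 of the 8 were called lower. Of 38 ribosome biogenesis genes in the list, 6 were tested and 2 fell. Rrs1, an assembly factor of the large ribosomal subunit, fell from 64.7 and 64.8 FPKM to 44.3 and 45.2 FPKM. Ddx21, a nucleolar helicase, fell from 77.4 and 74.9 FPKM to 46.7 FPKM in the first day 10 library. The other day 10 library does not list Ddx21, so its call rests on 1 library there.

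The lists of large stable complexes showed few calls. Of 30 nuclear oxidative phosphorylation genes, 5 were higher and 1 lower; of 24 mitochondrial ribosomal protein genes, 3 were higher and 3 lower; of 8 cytosolic ribosomal protein genes, 2 were higher; and of 52 replication-dependent histone genes, 5 were higher and 1 lower. These shares lie under the 34.9% of all genes tested. With 1 library left out, the lowest counts were 2 higher oxidative phosphorylation genes (without the first of day 5), 1 higher cytosolic ribosomal protein gene (without any 1 library), 1 higher mitochondrial one (without either of day 5 or the second of day 10) and 0 lower mitochondrial ones (without the first of day 10). The medians lay between -0.07 and 0.18, and those of oxidative phosphorylation and histone genes were 0 or negative under the other scalings. Ndufa4l2, at 25.2 FPKM in 1 day 10 library against 0 in each of day 5, was the exception by size among the oxidative phosphorylation genes. Linker histone genes made up part of the histone increases: Hist1h1c rose from 44.8 and 43.8 FPKM to 71.7 and 72.9 FPKM and Hist1h1e from 5.05 and 4.66 FPKM to 8.06 and 8.13 FPKM. By gene type, 682 of 2647 protein-coding genes were higher (25.8%) and 503 lower (19.0%), and 436 of 1433 processed pseudogenes were higher (30.4%) and 136 lower (9.49%). Small RNA genes were rarely called, with 2 higher and 2 lower of 188 snoRNA genes.

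Few markers of other cell types that such a culture could hold were tested. Of the macrophage and blood list, 16 of 26 genes were listed and 3 tested, with a summed level of 16.7 to 20.3 FPKM at day 5 and of 43.1 to 48.9 FPKM at day 10. Nearly all of this was Hbb-y, an embryonic globin, which went from 15.0 and 18.2 FPKM to 42.3 and 47.5 FPKM, while Lyz2, a macrophage lysozyme, was at 1.08 and 1.43 FPKM at day 5 and listed at 0 in both day 10 libraries. None of the 8 listed muscle markers passed the filter, and Myog was listed at 0 in all 4 libraries. Of the endothelial markers, 1 was tested, the claudin Cldn5, which was called higher but stayed under 1 FPKM, going from 0.0709 and 0 FPKM to 0.92 and 0.956 FPKM. Tek of the same list was higher but not tested, at 14.1 FPKM in 1 day 5 library and 23.2 FPKM in 1 day 10 library. Cd68 of the macrophage list was not tested either, with 8.70 FPKM in the 1 day 10 library that lists it. The part of other cell types in the results above was not tested.

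The same days were compared in control cells to see where the Cdk9-DN cells differed. The 2 comparisons share no library but were made in the same fit. Each gene has 1 estimate of the spread there, so its calls with the 2 vectors are not independent. Control cells gave 2885 calls among 5798 genes (49.8%), with 1582 higher (27.3%) and 1303 lower (22.5%), and 54.6% reached an unadjusted p under 0.05. Over 5485 genes tested with both vectors, 1226 were called higher with Cdk9-DN and 1504 with control, and 1000 with both, which was 81.6% of the former and 66.5% of the latter. For genes called lower the counts were 668 and 1224, with 541 in both, 81.0% and 44.2%. Genes called in opposite directions numbered 31 of the 1226 (2.53%) and 27 of the 668 (4.04%). Over 2098 genes the median absolute difference between the days was 0.36 with Cdk9-DN and 0.54 with control, and the median difference between replicates was 0.12 at day 10 and 0.13 at day 5 with Cdk9-DN. Across the 5485 genes the 2 sets of changes had a Pearson r of 0.365 and a Spearman rho of 0.530. The genes are not independent of each other, and these values are a description.

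The difference between the 2 changes was tested in the same fit, Cdk9-DN minus control. Of 5485 genes, 887 were called (16.2%), 480 with a higher change in Cdk9-DN cells (8.75%) and 407 with a lower one (7.42%), and 30.2% reached an unadjusted p under 0.05. The share of higher calls was 54.1%. It was 41.0% when protein-coding genes were fitted alone and rescaled to their own sum. Leaving out 1 library at a time gave 525 to 750 calls. The count fell by over 1.5 times, to between 525 and 573, without either Cdk9-DN library of day 5 or day 10 or either control library of day 5.

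**Figure D3:**
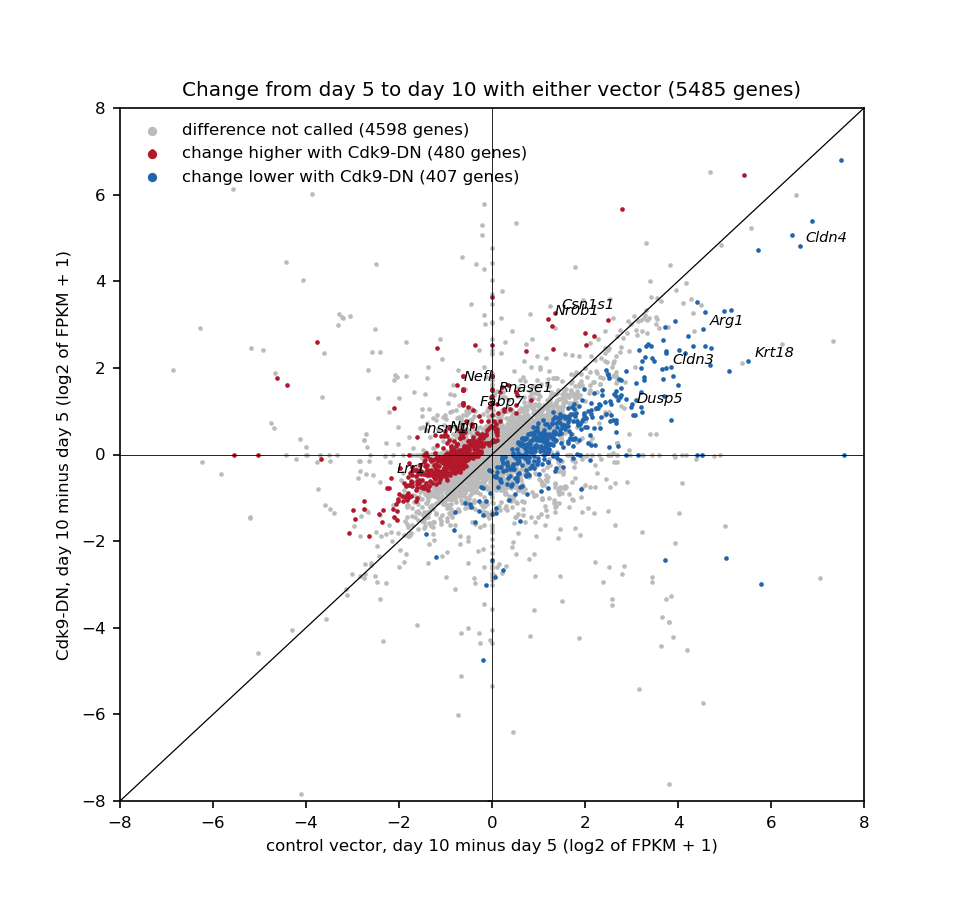
Change from day 5 to day 10 with Cdk9-DN (vertical axis) against the change with the control vector (horizontal axis), both in log2 of FPKM + 1, for the genes tested with both vectors; the diagonal marks equal changes, and 7 genes lie outside the axes. Red points (480 genes) lie above the diagonal and mostly left of 0, blue points (407 genes) below it and mostly right of 0, with Krt18 the farthest of the labelled genes from it.

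Simple epithelial genes had mostly negative differences: 10 of 13 tested were called negative and 0 positive, against 7.42% called negative over all genes. Cdh3 and Prss8, which did not rise with Cdk9-DN, are among the 10. With 1 library left out, 6 to 8 were called, the lowest without the first Cdk9-DN library of day 10. In control cells Krt18 went from 0.853 and 0.921 FPKM to 86.6 and 83.8 FPKM, and the difference was -3.35 ± 0.19 (SE; adjusted p = 9.92e-05). For Krt8, control cells went from 15.6 and 15.5 FPKM to 189 FPKM in 1 library, and the difference of -0.50 did not pass (adjusted p = 0.0706, 95% interval -0.86 to -0.14 before adjustment). With Cdk9-DN the 2 partner keratins differed in level at day 10, with Krt18 at 7.10 and 6.31 FPKM and Krt8 at 97.9 and 98.2 FPKM. They already differed at day 5, with Krt18 at 0.574 and 0.883 FPKM and Krt8 at 11 and 11.3 FPKM. Cldn4 reached 102 and 98.0 FPKM in control cells at day 10 (difference -1.81, adjusted p = 0.000109) and Cldn3 82.0 and 80.2 FPKM (difference -1.74). Among other genes with a smaller increase, Arg1, arginase, went from 0.607 and 0.443 FPKM to 10.2 and 10.6 FPKM with Cdk9-DN and to 42.7 and 37.6 FPKM with control. Dusp5, a nuclear ERK phosphatase (chr19:53603599-53616921), went from 2.95 and 3.26 FPKM to 8.03 and 7.41 FPKM with Cdk9-DN and to 32.4 and 34.6 FPKM with control (difference -1.90, adjusted p = 0.000428).

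Negative differences were also called for 11 of 23 immediate early genes and 6 of 8 TGF-beta response genes, and for 4 of 8 p53 targets and 4 of 9 keratinocyte and trophoblast markers, against 7.42% over all genes. Without 1 library at a time the counts of the first 2 lists were 7 to 11, the lowest without the first Cdk9-DN library of day 10, and 5 to 6. Gadd45b, a stress-induced gene chosen here after its values were seen, rose by 0.72 with Cdk9-DN and by 2.66 with control, a difference of -1.95. Only 1 Cdk9-DN library of day 10 lists Gadd45b. Ctgf rose by 1.07 and by 2.28, a difference of -1.20. A few genes went in opposite directions: Cyr61 fell by 0.85 with Cdk9-DN and rose by 1.04 with control (difference -1.90, adjusted p = 0.000909), and Gdf15, a secreted stress cytokine, fell by 0.77 and rose by 1.20 (difference -1.96, adjusted p = 0.00198). The values of Cyr61 rest on 1 Cdk9-DN library at day 5 and 1 control library at day 10. Tgfb3, a TGF-beta ligand, fell by 1.30 with Cdk9-DN, against a control change of -0.28 that did not pass (difference -1.01, adjusted p = 0.0106). Its control value at day 5 comes from 1 library.

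Positive differences came from genes that rose more with Cdk9-DN and from genes that fell less. Nefl, the light neurofilament subunit (chr14:68701920-68707152), rose from 3.46 and 4.08 FPKM to 13.3 and 13.5 FPKM with Cdk9-DN, while in control cells it fell from 3.98 and 3.84 FPKM to 2.02 and 1.8 FPKM (difference 2.35 ± 0.11, SE; adjusted p = 3.99e-05). Insm1, a zinc finger factor of neuroendocrine cells (chr2:146047657-146050752), was at 3.62 and 4.00 FPKM and then 5.12 and 5.54 FPKM with Cdk9-DN, a change that did not pass (adjusted p = 0.0679). In control cells it fell from 4.19 and 5.80 FPKM to 0.865 and 1.02 FPKM (difference 2.01, adjusted p = 0.00103). Ndn, necdin, rose by 0.44 with Cdk9-DN and fell by 1.04 with control. For Nefl and Ndn the sign of the called change was therefore opposite between the vectors. Nr0b1 rose to 10.4 and 11.4 FPKM with Cdk9-DN and to 4.29 and 3.91 FPKM with control (difference 1.92, adjusted p = 0.000186), and Csn1s1, a milk casein (chr5:88095249-88111598), to 18.4 and 17.9 FPKM and to 5.62 and 4.45 FPKM (difference 1.91, adjusted p = 0.00237). Fabp7 and Rnase1 had differences of 1.43 and 1.35, which did not pass in several of the leave-one-out fits (highest adjusted p = 0.0949 and 0.0645). Pluripotency genes did not share a direction, with 1 higher (Nr0b1) and 3 lower of 14: Dppa5a reached 26.8 and 21.4 FPKM with control (difference -2.09, adjusted p = 0.000389), and the Nanog difference of -0.63 did not pass (95% interval -1.31 to 0.05, adjusted p = 0.194). Without the second control library of day 5 there was 1 lower call.

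Replication and ribosome assembly genes had mostly positive differences. The difference was positive and called for 7 of 8 S phase genes and for 4 of 6 ribosome biogenesis genes, against 8.75% over all genes, and negative for 0 of either. The fits without 1 library gave 4 to 6, the lowest without the second Cdk9-DN library of day 10, and 2 to 5, the lowest without the first. Lrr1, which marks the replicative helicase for unloading, was at 29.1 and 26.1 FPKM and then 19.0 and 18.5 FPKM with Cdk9-DN (adjusted p = 0.082), and fell from 25.8 and 35.0 FPKM to 6.73 and 5.08 FPKM with control (difference 1.65, adjusted p = 0.00958). Mcm2, a further helicase subunit, fell by 0.39 with Cdk9-DN and by 1.58 with control, and Mcm4 by 0.59 and 1.5. Rrs1 ended at 44.3 and 45.2 FPKM with Cdk9-DN and at 18.8 and 19.8 FPKM with control (difference 1.29, adjusted p = 3.99e-05). Of 6 mitosis genes, 1 had a called difference, Birc5 (difference 0.60, adjusted p = 0.0468). That call was lost without either control library of day 5, either Cdk9-DN library of day 10 or the second of day 5. The differences of Cdca5, Cenpe, Plk1, Kif20a and Ube2c were 0.44, 0.35, 0.30, 0.06 and -0.003 and did not pass. Whether mitosis genes differed from S phase genes in this was not tested. Of the fibroblast genes, Dcn kept a level of 12.5 and 14 FPKM with Cdk9-DN against 3.73 and 4.42 FPKM with control (difference 1.22, adjusted p = 0.00344). For Thy1 the changes were -1.89 and -1.81, with a 95% interval of the difference from -0.27 to 0.12, and for Sfrp2 -3.79 and -3.56, with an interval from -0.62 to 0.16.

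Several of the large increases with Cdk9-DN were called in control cells as well; Sprr1a, S100a14 and Pdzk1ip1 could not be tested there. Trh rose from 3.21 and 3.06 FPKM to 189 and 162 FPKM in control cells. The difference of 1.03 passed (adjusted p = 0.04) but was lost in 7 of the 8 fits without 1 library. Npy reached 134 and 123 FPKM with control (difference -1.48, adjusted p = 0.0188), a call that was lost without either Cdk9-DN library of day 10, without the second control library of day 5 or without the first of day 10. For Ly6d the changes were 4.84 and 4.93 and the difference -0.08 (95% interval -0.70 to 0.54). Gsta4 rose by 2.47 and 2.43, with an interval of the difference from -0.13 to 0.20.

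**Figure D4:**
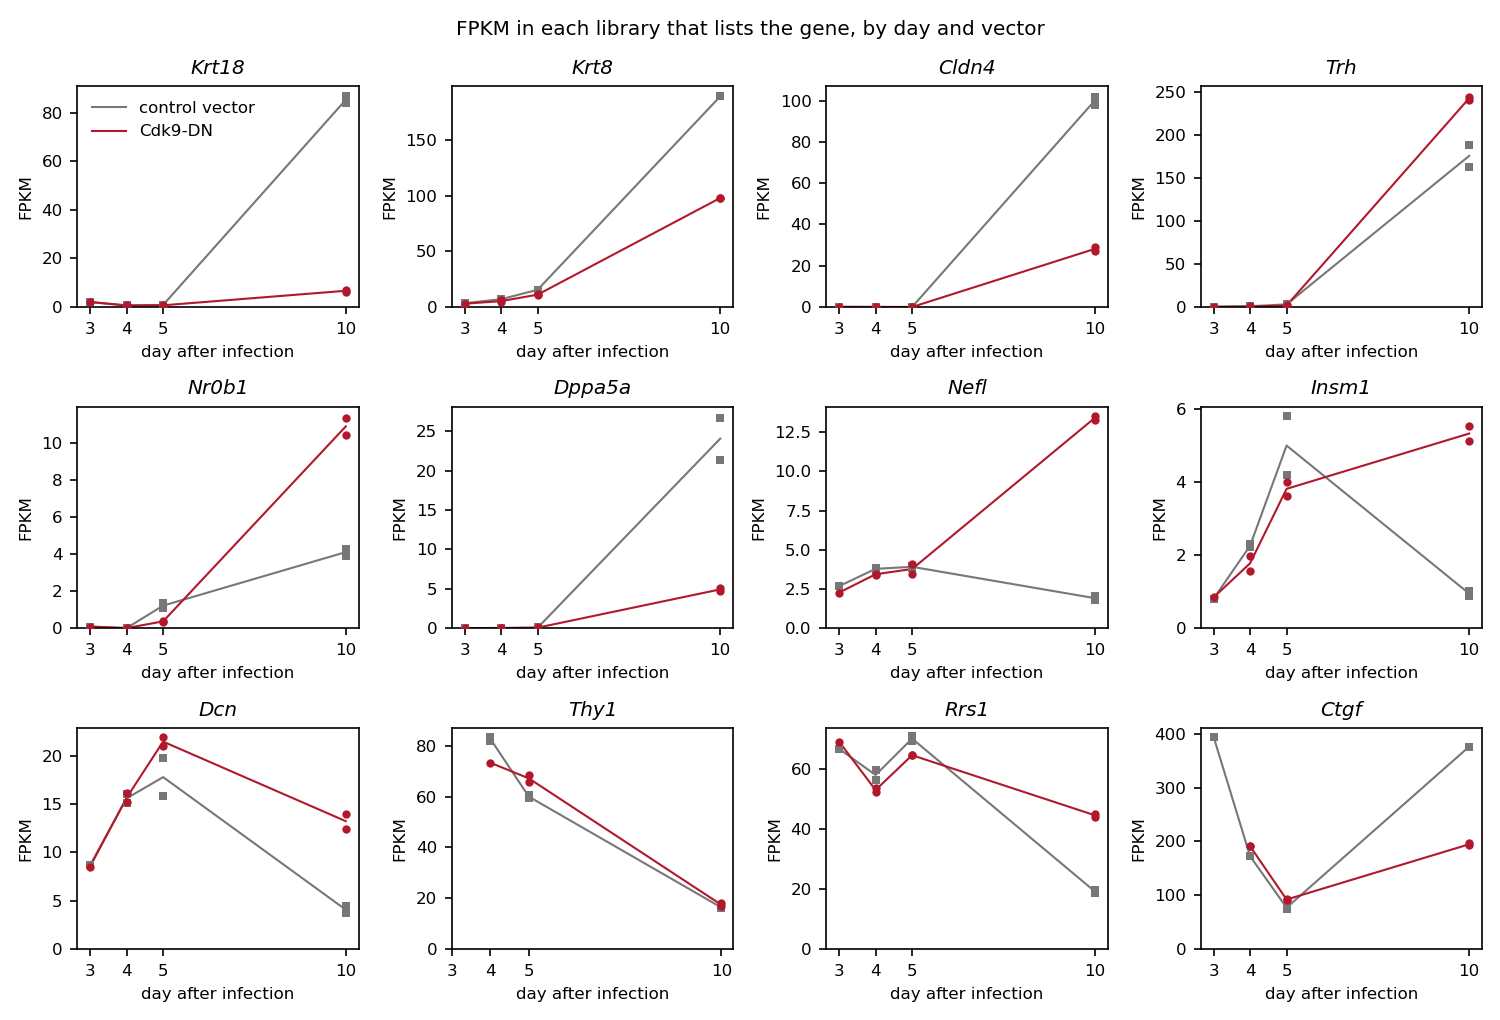
FPKM in each library that lists the gene (points) and group means (lines) against days after infection, control vector in grey and Cdk9-DN in red, with 1 library per vector at day 3 and up to 2 afterwards; each panel has its own axis. For Krt18 and Cldn4 the vectors part between days 5 and 10 (7.10 and 6.31 FPKM against 86.6 and 83.8 FPKM for Krt18 at day 10), and for Nefl, Insm1, Dcn and Rrs1 the red line ends above the grey one.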

How the data were processed

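RNA of whole cultures was sequenced in 14 libraries, and the authors deposited 1 table per library with the FPKM of each gene and its lower and upper bound. Per the submitters' processing notes, CASAVA 1.8.2, TopHat2 2.0.10 and Cufflinks 2.2.1 were used with the mouse builds mm9 and NCBIM37; options and strand are not given in the sources used here. Gene coordinates come from these tables (mm9). Genes not listed in a library were taken as missing there, not as 0. Whole-read counts were not recovered, and depth was estimated from the deposited FPKM bounds. Genes were fitted with limma 3.58.1 (R 4.3.3) on log2(FPKM + 1) over the 12 libraries of days 4, 5 and 10, with 6 group means and an intensity trend, after a filter of at least 1 FPKM in at least 2 libraries. A gene's fit used only libraries listing the gene, and genes with under 2 residual degrees of freedom were dropped. Where a fit left out 1 library, genes listed in no other library of its group could not be fitted. Counts over lists took such genes as not called. P-values were adjusted by Benjamini and Hochberg over all genes tested. The fit was tested on simulated data. Tables were made with Python 3.11.15 and pandas 2.3.3.

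Named genes were the 15 largest changes in each direction among called, protein-coding, non-overlapping genes whose higher group mean reached 5 FPKM, the 8 largest differences between vectors in each direction, up to 3 called members per list and direction, and a fixed set. Gadd45b, Utf1, Dppa5a, Gpx2-ps1, Ifitm1, Prss8, Cdh3, Klf5, Kif22, Gins4, Rfc2, Tek and Cd68 were named after their values were seen. Some items that the rule selects are not reported here. The members, the 32 gene lists and the tests were chosen with earlier results of these data known. Alternatives were other pseudocounts, filters and scalings, fits of fewer libraries or genes, a replicate block and leaving out each library.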

Additional observations from a re-analysis of the deposited data

Results flagged for a closer look

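For 887 genes the change from day 5 to day 10 differed between the vectors by limma's test of the difference itself (adjusted p under 0.05), and those named in the text are given here. Values are differences in log2 of FPKM + 1, Cdk9-DN minus control.

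Among genes of neurons, stem cells and secretion, the differences were 2.35 for Nefl, 2.01 for Insm1, 1.92 for Nr0b1, 1.91 for Csn1s1, 1.48 for Ndn, 1.06 for Gap43, 1.43 for Fabp7, 1.35 for Rnase1 and 1.03 for Trh. Replication, mitosis and nucleolar genes gave 1.65 (Lrr1), 1.29 (Rrs1), 1.19 (Mcm2), 1.14 (Mcm3), 1.08 (Ddx21), 0.91 (Mcm4), 0.60 (Birc5), 0.45 (Gins4) and 0.78 (Rfc2). Other positive differences were 1.22 for Dcn, 0.76 for Sostdc1, 0.66 for Egr1, 0.55 for Hoxd13, 0.54 for Leo1 and 0.52 for Hexim1.

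Epithelial genes had negative differences of -3.35 (Krt18), -1.81 (Cldn4), -1.74 (Cldn3), -0.90 (Asprv1), -0.86 (Sfn), -0.73 (Cdh3) and -0.49 (Perp). Prss8 was called too (adjusted p = 6.53e-06), with no size given since it is listed at 0 with Cdk9-DN. Stress and growth factor response genes gave -1.96 (Gdf15), -1.95 (Gadd45b), -1.90 (Cyr61 and Dusp5), -1.20 (Ctgf), -1.18 (Id1) and -1.01 (Tgfb3). The others were -2.09 for Dppa5a, -1.64 for Arg1, -1.48 for Npy, -1.38 for Saa1, -1.16 for Cnn1, -1.08 for the endothelial marker Cldn5, -1.03 for Utf1, -0.45 for Hist1h1c and -0.41 for Cd276. For Ndufa4l2, listed at 0 at day 5 with both vectors, the fitted value was -1.0 and rests on 1 day 10 library per vector.

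The calls of Trh, Npy, Sostdc1, Birc5, Hoxd13, Leo1, Hexim1, Fabp7, Rnase1, Utf1, Ndufa4l2, Cd276 and Hist1h1c were lost in at least 1 fit that left out 1 library.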

How the results depend on the processing

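The counts for Cdk9-DN cells, 2019 genes in all with 1304 higher and 715 lower, moved by over 1.5 times under a few settings. Genes listed in all 12 libraries gave 1058, 748 and 310, the libraries of the contrast alone 1287, 847 and 440, and rescaled protein-coding genes 1054 and 525 (total and higher). Leaving out 1 library gave 1397 to 1511 in all, 933 to 1016 higher and 450 to 500 lower, the lower count moving most without the first library of day 5 or of day 10. For the difference between vectors, 887 with 480 higher and 407 lower, genes listed in all 12 libraries gave 385, 214 and 171 and rescaled protein-coding genes 454, 186 and 268. Leaving out 1 library gave 525 to 750, 271 to 380 and 245 to 370. Fewer genes passed the filter in the fits of fully listed genes (3491) and of protein-coding genes alone (4094) than in the main fit (7460). In the main fit, 682 protein-coding genes were called higher and 503 lower. The cause of the other shifts was not tested. The other settings, including genes listed in all 4 libraries, which was added after seeing the data, stayed within 1.5 times.

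Of 141 named genes tested, 135 were called and 106 kept their side of the threshold in every setting run; 1, Cox6a1, turned from 0.42 to -0.02 under quantile normalization. Replicate numbers did not pair the samples: same-numbered libraries of days 5 and 10 with Cdk9-DN had a correlation of deviations of -0.0666. A fit with a replicate block gave 1825 calls, 1202 higher and 623 lower, and 705 for the difference. Depth of 8.79 to 12.96 M fragments and 2 libraries a group limit the precision of genes near 1 FPKM.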

Other observations

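Neural and neuroendocrine genes, of which 24 of 36 were listed and 9 tested, gave 4 called higher and 3 lower in Cdk9-DN cells, with a median of 0.40, against 22.5% higher and 12.4% lower over all genes. Their summed level over 7 genes was 9.95 to 12.3 FPKM at day 5 and 314 to 318 FPKM at day 10, most of it Trh. Gap43, a growth cone protein, fell from 18.7 FPKM in 1 library to 7.04 and 7.16 FPKM, while Nefl rose, so members known from neurons moved both ways. Of the p53 targets, 3 were higher and 4 lower of 9 tested, against the same shares, with 1 lower without the second day 5 library.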
